A study of Mus musculus with 6 samples.

Results

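The insulin-like growth factor (IGF) family was examined as 10 genes of the deposited table, the growth factors Igf1 and Igf2, the receptors Igf1r and Igf2r, and the binding proteins Igfbp2, Igfbp3, Igfbp4, Igfbp5, Igfbp6 and Igfbp7. They are 10 of 56496 genes and were chosen by symbol. Bone marrow RNA-seq libraries were compared between an Onway group (Onway 1 to Onway 3, n = 3), from mice that received Onway by oral gavage over 2 weeks, and a Control group (Control 4 to Control 6, n = 3), from untreated mice. All mice were wild-type BALB/c females that had earlier carried a tumour of the mammary carcinoma line 4T1, removed by surgery. The composition of Onway and the age of the mice were not stated. Day 14 is attached to the Onway libraries and day 0 to the Control libraries in the labels, so a change with treatment and a change with day cannot be told apart. The extraction text of the labels also lists dexamethasone, isobutylmethylxanthine and insulin with culture medium, and whether any marrow cells were cultured is not clear from it. Separate mice are not stated for the libraries, so each p-value reflects library-to-library spread, which may be technical.

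IGF1 and IGF2 are secreted peptides that act through the receptor tyrosine kinase encoded by Igf1r. The product of Igf2r, also the cation-independent mannose 6-phosphate receptor, takes up IGF2 for degradation and has no kinase. The binding proteins hold the growth factors in extracellular fluid and matrix and set how much reaches the receptor, and in bone and marrow they are made largely by osteoblasts, stromal cells and endothelium.

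In marrow from Onway mice 3 binding protein genes were lower than in Control, and no family member was higher. Igfbp5 was 13-fold lower, Igfbp3 9.65-fold lower and Igfbp7 4.89-fold lower between group means. Igfbp4, the most abundant member, was 1.57-fold lower and did not pass the test, and neither receptor did. Of the 10 members 9 had a mean of at least 1 TPM, a length-scaled transcript abundance that sums to 1e+06 in each library, and were tested with limma, and 3 were lower at a Benjamini-Hochberg adjusted p below 0.05, against 2.99% of the 14192 genes tested. None was higher, against 0.233% of tested genes. At an unadjusted p below 0.05 the count was 6 members, all lower, against 13.4% of tested genes in either direction and 8.42% in the lower direction. The median log2 fold change was −0.98 over the 9 tested members and 0.03 over all tested genes. The groups did not overlap, with every Onway library below every Control library, for 6 members, against 11.5% of tested genes. No member had every Onway library above every Control library, against 6.95% of tested genes.

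Every library carried RNA of haemoglobin genes and of general leukocyte genes. Haemoglobin genes took 9.38% to 33.9% of the TPM in Onway and 11.6% to 26.6% in Control. The 8 general leukocyte markers summed to 2579 to 4540 TPM in Onway and 3516 to 5841 TPM in Control. Mpo was the largest part of each of these leukocyte sums. Mpo and Elane had negative log2 fold changes (−0.68 and −0.91), and Elane did not overlap between the groups. The other 6 markers had positive ones, and none of the 8 was called. Onway 3 and Control 4 had the highest haemoglobin shares of their groups. Sequencing depth is unknown, because TPM keeps none. In these bulk samples fewer cells of a type and less RNA per cell cannot be told apart.

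The start-site windows of the 3 genes that were lower together, and of Igfbp4, which stayed the most abundant, are shown to let their promoters be compared. They are RefSeq sequences of build GRCm38.p6, each 250 bases before and 50 after the annotated start, read 5′ to 3′ on the gene's strand. Capitals mark the TATA core (TATAAA or TATATA) and the GC box (GGGCGG), each searched on both strands.
Igfbp5, chr1:72874816-72875115, minus strand: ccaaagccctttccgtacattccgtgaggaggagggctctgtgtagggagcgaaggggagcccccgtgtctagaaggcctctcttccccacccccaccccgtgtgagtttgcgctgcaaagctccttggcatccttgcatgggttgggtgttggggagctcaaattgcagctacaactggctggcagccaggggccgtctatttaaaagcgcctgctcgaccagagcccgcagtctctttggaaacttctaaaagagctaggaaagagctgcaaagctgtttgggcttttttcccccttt
Igfbp3, chr11:7213874-7214173, minus strand: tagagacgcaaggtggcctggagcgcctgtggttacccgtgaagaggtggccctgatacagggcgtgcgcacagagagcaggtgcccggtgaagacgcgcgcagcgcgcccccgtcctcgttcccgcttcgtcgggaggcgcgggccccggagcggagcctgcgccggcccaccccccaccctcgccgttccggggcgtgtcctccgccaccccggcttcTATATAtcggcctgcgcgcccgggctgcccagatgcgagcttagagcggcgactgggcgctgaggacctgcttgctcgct
Igfbp7, chr5:77407996-77408295, minus strand: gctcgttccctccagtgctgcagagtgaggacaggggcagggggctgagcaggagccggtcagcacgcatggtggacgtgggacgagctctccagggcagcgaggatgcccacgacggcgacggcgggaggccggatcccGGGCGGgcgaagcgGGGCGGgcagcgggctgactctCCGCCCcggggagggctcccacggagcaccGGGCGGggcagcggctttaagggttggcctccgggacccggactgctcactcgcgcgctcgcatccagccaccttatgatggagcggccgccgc
Igfbp4, chr11:99040994-99041293, plus strand: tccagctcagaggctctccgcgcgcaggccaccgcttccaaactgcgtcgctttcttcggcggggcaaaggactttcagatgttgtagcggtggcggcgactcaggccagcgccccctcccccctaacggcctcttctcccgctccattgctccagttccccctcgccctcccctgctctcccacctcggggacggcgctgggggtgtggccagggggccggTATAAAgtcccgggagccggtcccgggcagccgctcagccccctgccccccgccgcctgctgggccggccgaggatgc
The 3 genes that were lower had no shared arrangement of these motifs. Igfbp3 held TATATA 30 bases before its start and no GC box, Igfbp7 held 4 GC boxes between 44 and 110 bases before its start and no TATA core, and Igfbp5 held neither. Igfbp4 held TATAAA 28 bases before its start. A TATA core was in 17.1% and a GC box in 35.7% of 32851 windows of this length over all genes. The motifs CATTCC and CANNTG, also searched on both strands and not capitalised, were in 14.7% and 72.3% of them. Of the genes shown only Igfbp5 held CATTCC, 233 bases before its start. CANNTG was found at 2 places in Igfbp3, at 1 in Igfbp5, at 1 in Igfbp4 and at 0 in Igfbp7. G and C made up 56.3% of the Igfbp5 window, 71.7% of that of Igfbp3, 73.3% of that of Igfbp7 and 71.3% of that of Igfbp4, with a median of 52.7% over all windows.

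**Figure D1:**
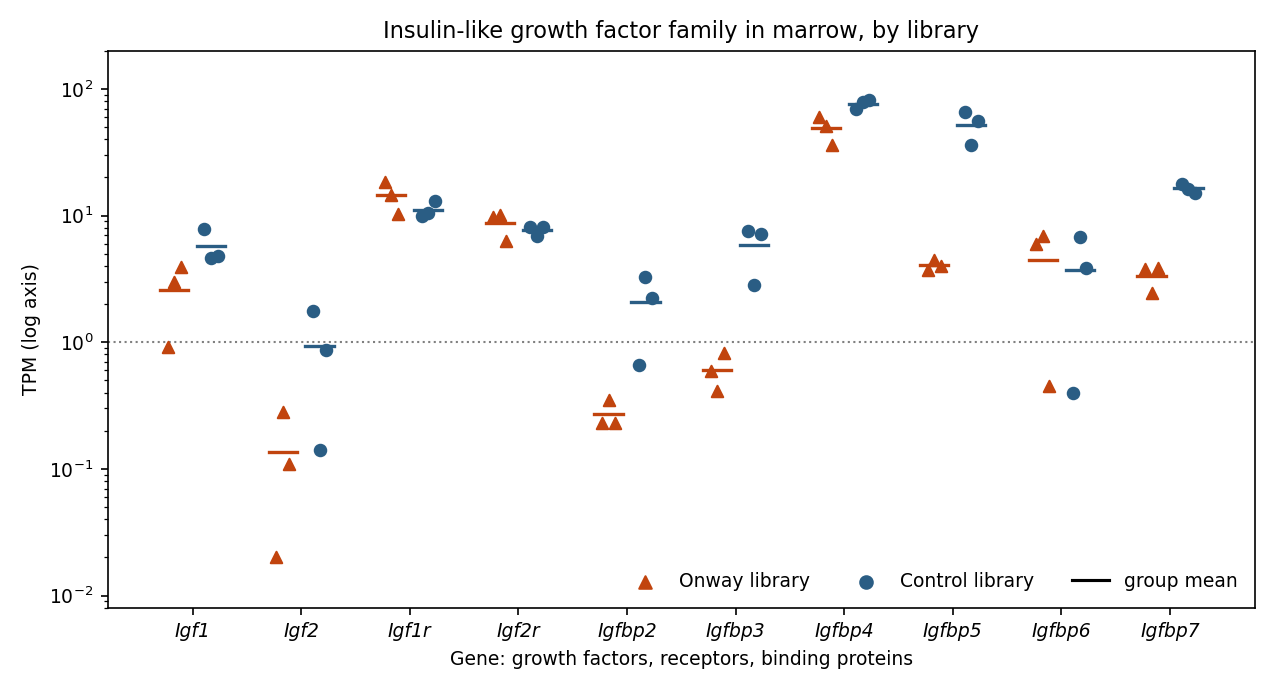
TPM of each family member in each library (log axis; triangles, Onway; circles, Control; lines, group means, n = 3 each; dotted line, 1 TPM). Igfbp3, Igfbp5 and Igfbp7 lie well apart between the groups, whereas Igf1r, Igf2r, Igf2 and Igfbp6 overlap.

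Igfbp5 had the largest difference in the family. It encodes a binding protein of bone matrix, made by osteoblasts and stroma, and lies on chromosome 1 at 72857932 to 72874884 (GRCm38, minus strand). Igfbp5 was at 3.69, 4.43 and 3.99 TPM in Onway 1, Onway 2 and Onway 3, against 65.5, 35.8 and 55.6 TPM in Control 4, Control 5 and Control 6. All Onway libraries lay within a narrow band far below the lowest Control library. The log2 fold change was −3.36 (SE 0.24, limma adjusted p = 0.00052), from means of 4.04 ± 0.372 TPM in Onway and 52.3 ± 15.1 TPM in Control (SD, n = 3 each). The call held without any single library and without both Onway 3 and Control 4.

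Igfbp7 encodes a low-affinity relative of the other binding proteins, secreted by endothelium and stroma, and lies on chromosome 5 at 77349240 to 77408041. Its level was 3.76, 2.43 and 3.86 TPM in Onway 1, Onway 2 and Onway 3, against 17.8, 16.3 and 15.1 TPM in Control 4, Control 5 and Control 6. In these libraries the groups were far apart and the spread within each was small. The authors' group means hold a further value per group besides these libraries. For Igfbp7 it was 8.42 TPM in Onway and 5.62 TPM in Control. The log2 fold change was −2.01 (SE 0.20, limma adjusted p = 0.0017), and the call held without any single library and without both Onway 3 and Control 4.

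Igfbp3 encodes the main carrier of circulating IGF1 and lies on chromosome 11 at 7206086 to 7213923. It was found at 0.590, 0.410 and 0.820 TPM in Onway 1, Onway 2 and Onway 3, against 7.54, 2.82 and 7.20 TPM in Control 4, Control 5 and Control 6. No Onway library reached 1 TPM, and Control 5 stood below the other Control libraries. The log2 fold change was −2.01 (SE 0.34, limma adjusted p = 0.019). It was −2.99 with a pseudocount of 0.1 TPM in place of 1 TPM. This call was the least stable, with adjusted p = 0.051 without Onway 1, 0.11 without Onway 2, 0.070 without Onway 3, 0.058 without Control 6 and 0.11 without both Onway 3 and Control 4.

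Igfbp4, which restrains IGF action until the protease PAPP-A cleaves it, was the highest member in every library. It lies on chromosome 11 at 99041244 to 99054392. Its level was 59.5, 50.7 and 36.1 TPM in Onway 1, Onway 2 and Onway 3, against 68.8, 79.3 and 81.8 TPM in Control 4, Control 5 and Control 6. The groups did not overlap, but the difference missed the threshold over all genes (log2 fold change −0.67, SE 0.21, limma adjusted p = 0.21).

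Igfbp2, which encodes a binding protein made by many tissues, was low throughout. It lies 5457 bases from Igfbp5 on chromosome 1, tail to tail. Its level was 0.230, 0.350 and 0.230 TPM in Onway 1, Onway 2 and Onway 3, against 0.660, 3.28 and 2.25 TPM in Control 4, Control 5 and Control 6. Every Onway library was below every Control library, with Control 4 close to the Onway range (log2 fold change −1.17, SE 0.36, limma adjusted p = 0.20). Without Control 4 the adjusted p was 0.024, and with a pseudocount of 0.1 TPM the log2 fold change was −2.31.

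Igfbp6, whose product prefers IGF2, split the libraries across the groups. Its level was 5.97, 6.88 and 0.450 TPM in Onway 1, Onway 2 and Onway 3, against 0.400, 6.80 and 3.88 TPM in Control 4, Control 5 and Control 6. The low libraries were Onway 3 and Control 4, which also had the highest haemoglobin shares, and the part of the haemoglobin share in this was not tested. The log2 fold change was 0.19 (SE 0.92, limma adjusted p = 0.96), and 0.26 without those 2 libraries.

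**Figure D2:**
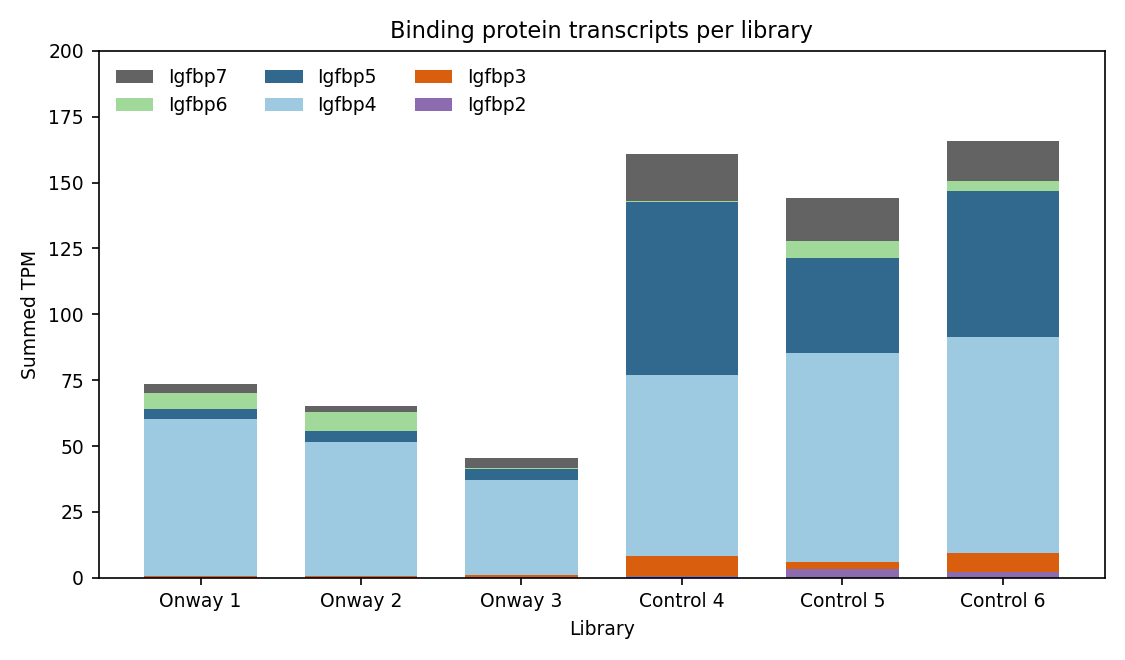
Summed TPM of the 6 binding protein genes in each library, stacked by gene from 0. The Onway libraries reach 45.5 to 73.7 TPM and the Control libraries 144 to 166 TPM, and the Igfbp5 segment is narrow in each Onway library.

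The make-up of the binding protein transcripts differed along with their sum. The summed TPM of these 6 genes was 73.7 in Onway 1, 65.2 in Onway 2 and 45.5 in Onway 3, against 161 in Control 4, 144 in Control 5 and 166 in Control 6. Igfbp4 supplied 79.3% ± 1.46 of this sum in Onway and 49.0% ± 6.06 in Control, and Igfbp5 supplied 6.86% ± 1.88 in Onway and 33.0% ± 7.98 in Control (SD, n = 3 each). Igfbp4 exceeded Igfbp5 by 9.06-fold to 16.1-fold in the Onway libraries and by 1.05-fold to 2.21-fold in the Control libraries. The stacked plot of binding protein TPM shows this as a near loss of the Igfbp5 segment. These shares describe genes already tested above and carry no test of their own.

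The growth factors were low. Igf1, made in marrow by stromal cells and macrophages, lies on chromosome 10 at 87858265 to 87937042. Its level was 0.910, 3.01 and 3.90 TPM in Onway 1, Onway 2 and Onway 3, against 7.85, 4.61 and 4.79 TPM in Control 4, Control 5 and Control 6. The groups did not overlap, but Onway 3 came close to Control 5 and Control 6 (log2 fold change −0.98, SE 0.38, limma adjusted p = 0.32). Igf2, an imprinted fetal growth factor, was at 0.02, 0.280 and 0.110 TPM in Onway 1, Onway 2 and Onway 3, against 1.77, 0.140 and 0.870 TPM in Control 4, Control 5 and Control 6. Its mean was under 1 TPM and Control 5 lay within the Onway range. An exact permutation test on log2(TPM + 1) gave Igf2 a two-sided p = 0.20, where 0.1 is the smallest possible with 3 against 3 libraries.

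Neither receptor gene passed the test. Igf1r, on chromosome 7 at 67952827 to 68233668, was at 18.3, 14.6 and 10.4 TPM in Onway 1, Onway 2 and Onway 3, against 9.86, 10.5 and 13.02 TPM in Control 4, Control 5 and Control 6. The groups overlapped, and the log2 fold change was 0.32 (SE 0.23, limma adjusted p = 0.62). Igf2r, on chromosome 17 at 12682406 to 12769664, was at 9.76, 10.1 and 6.26 TPM in Onway 1, Onway 2 and Onway 3, against 8.14, 6.85 and 8.05 TPM in Control 4, Control 5 and Control 6. Its groups overlapped as well (log2 fold change 0.14, SE 0.21, limma adjusted p = 0.84). A missed threshold does not show that the receptors were at equal levels.

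The order of levels within the family differed between the groups. In Onway it ran Igfbp4, Igf1r, Igf2r, Igfbp6, Igfbp5, Igfbp7, Igf1, Igfbp3, Igfbp2 and Igf2, and the ranges of all neighbours from Igf2r down to Igf1 overlapped, as did those of Igfbp2 and Igf2. In Control it ran Igfbp4, Igfbp5, Igfbp7, Igf1r, Igf2r, Igfbp3, Igf1, Igfbp6, Igfbp2 and Igf2, and only the first 4 steps down to Igf2r separated neighbouring ranges.

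**Figure D3:**
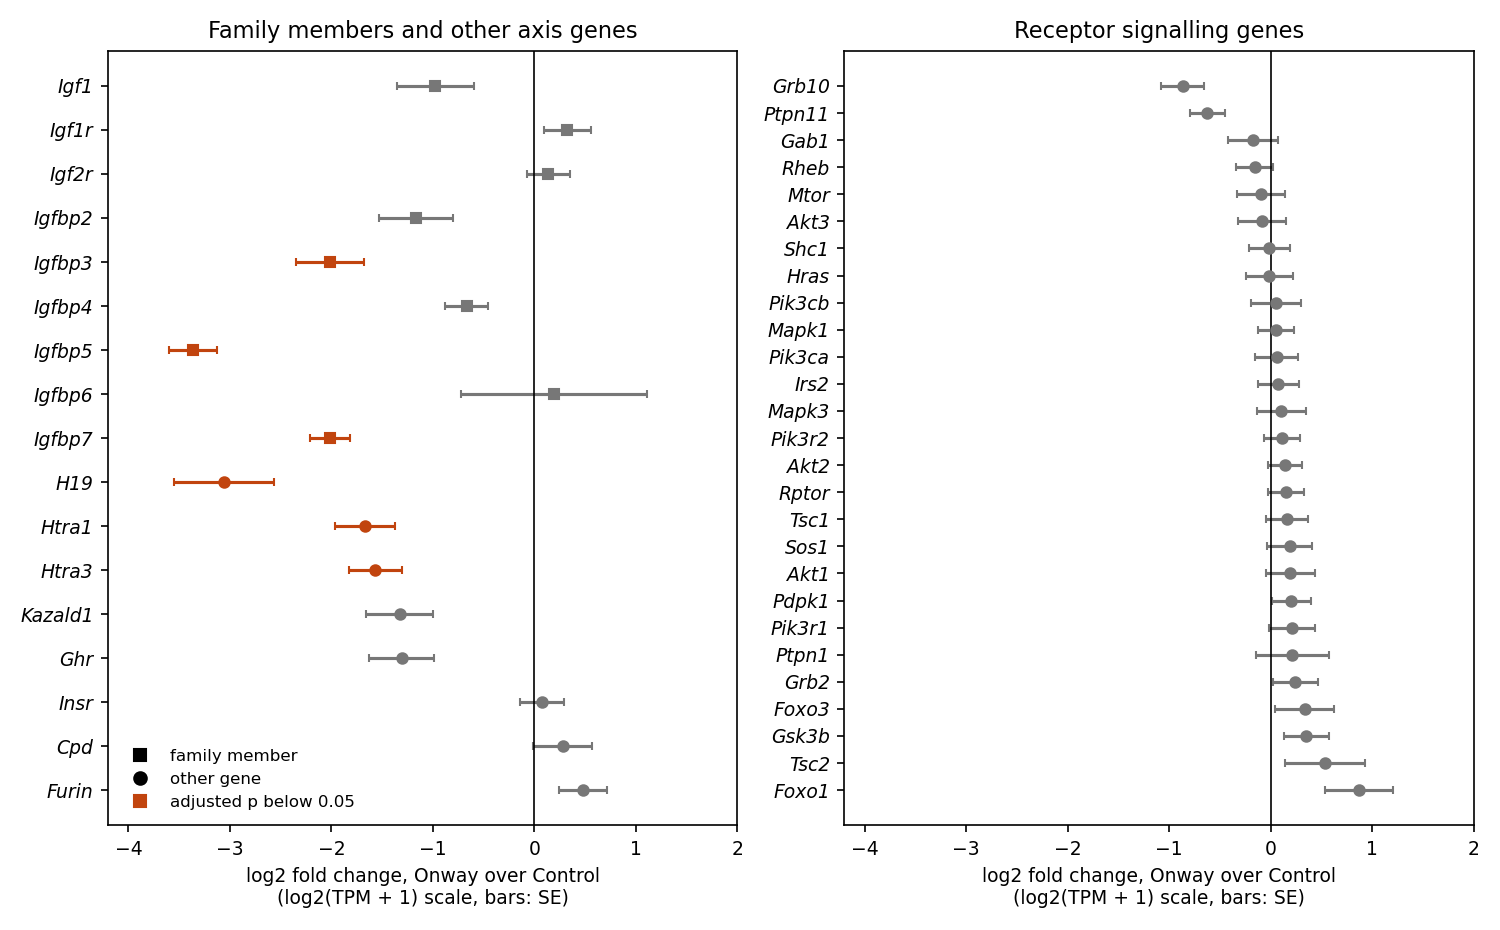
Log2 fold changes, Onway over Control, on the log2(TPM + 1) scale with standard errors, for family members and other axis genes (left) and the receptor signalling genes reported here (right). Coloured symbols passed an adjusted p of 0.05, and all 6 of them lie below 0.

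Other genes of the axis were described from a list of 20, of which 8 were tested and 3 were lower, with none higher. Over all tested genes 2.99% were lower and 0.233% higher. The median log2 fold change of these 8 was −1.32, against 0.03 over all tested genes. Insr, Cpd and Furin had positive log2 fold changes of 0.08, 0.28 and 0.48, with overlapping groups and no call. The lower genes were H19, the imprinted non-coding neighbour of Igf2, and Htra1 and Htra3, secreted serine proteases of which HTRA1 cleaves IGFBP5. H19 was at 0.260, 0.240 and 0.320 TPM in Onway 1, Onway 2 and Onway 3, against 11.2, 3.82 and 19.1 TPM in Control 4, Control 5 and Control 6 (log2 fold change −3.06, SE 0.49, limma adjusted p = 0.021). Htra1 was at 0.280, 0.520 and 0.260 TPM in the Onway libraries and 5.16, 2.10 and 3.13 TPM in the Control libraries (log2 fold change −1.67, SE 0.29, limma adjusted p = 0.023). For Htra3 the values were 0.170, 0.500 and 0.180 TPM in the Onway libraries and 3.75, 1.95 and 2.85 TPM in the Control libraries (log2 fold change −1.57, SE 0.26, limma adjusted p = 0.019). All 3 genes separated the groups, yet all 3 calls ended without Onway 1, without Onway 2 or without Onway 3 (adjusted p 0.089, 0.11 and 0.094 for H19, 0.061, 0.082 and 0.089 for Htra1, and 0.056, 0.055 and 0.075 for Htra3). Leaving out Control 4 ended the call of H19 (adjusted p = 0.077), and leaving out Control 6 ended those of Htra1 (0.060) and Htra3 (0.058). Without both Onway 3 and Control 4 the adjusted p was 0.17 for H19, 0.11 for Htra1 and 0.11 for Htra3.

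Ghr, the growth hormone receptor that drives Igf1 transcription in liver, was at 0.220, 0.970 and 0.220 TPM in the Onway libraries and 2.87, 1.54 and 3.54 TPM in the Control libraries. The groups did not overlap, the adjusted p by limma was 0.087, and it was 0.038 without Control 5. Insr, the insulin receptor, was at 11.6, 13.03 and 7.69 TPM in the Onway libraries and 10.2, 9.03 and 10.7 TPM in the Control libraries, with overlapping groups. Igfbp1 was listed at 0 in all 6 libraries, and Igfals, which encodes the acid-labile subunit of circulating IGF complexes, was at 0.230 TPM or less in each.

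Genes that carry the receptor signal inside the cell showed no call. Of 30 listed signalling genes 28 were tested, none was lower or higher by limma at an adjusted p below 0.05, and the median log2 fold change was 0.12. An unadjusted p below 0.05 was found for 3 of the 28, a share below the 13.4% of all tested genes. The 3 were Grb10, an imprinted adaptor that restrains the receptor (log2 fold change −0.87, SE 0.21, limma adjusted p = 0.086), Ptpn11, the phosphatase SHP2 (−0.62, SE 0.17, adjusted p = 0.14), and Foxo1, a transcription factor inhibited by AKT (0.87, SE 0.34, adjusted p = 0.31). Grb10 was at 2.57, 2.40 and 1.51 TPM in the Onway libraries and 5.29, 4.52 and 4.35 TPM in the Control libraries, without overlap. With median-of-ratios scaling Grb10 and Ptpn11 passed as lower (adjusted p = 0.040 and 0.037). The untested genes were Grb14 and Irs1, each with a mean under 1 TPM. Grb14 was at 0.390, 0.270 and 0.220 TPM in the Onway libraries and 2.07, 1.04 and 1.55 TPM in the Control libraries, without overlap. For Irs1 the groups overlapped.

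Transcript rows showed which annotated forms carried each gene. The members had 49 transcripts in the table, of which 14 had a mean of at least 1 TPM and 3 were lower by limma at an adjusted p below 0.05, against 1.02% of 34807 transcripts tested, and none was higher, against 0.198%. The 3 were the main protein-coding transcripts Igfbp5-201 (log2 fold change −3.52, SE 0.26, adjusted p = 0.0029), Igfbp7-201 (−2.01, SE 0.21, adjusted p = 0.0069) and Igfbp3-201 (−2.0, SE 0.34, adjusted p = 0.0498). Igfbp5-201 held 82.6% of the gene's TPM in Onway and 95.5% in Control. Most of the rest was an assembled transcript, MSTRG.501.2, with 1.06 TPM in Onway 1, 0.910 TPM in Onway 2 and 0 TPM in Onway 3, against 0, 0.120 and 6.45 TPM in Control 4, Control 5 and Control 6. That row was high in Control 6 alone. The count of lower transcripts was 2 without Onway 1, Onway 2, Onway 3, Control 4 or Control 6.

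Igfbp4 was carried by the protein-coding Igfbp4-201, with 57.4% of the gene's TPM in Onway and 58.3% in Control, and by Igfbp4-203, annotated as a processed transcript, with 34.5% in Onway and 35.9% in Control. The largest Igf1r row was an assembled transcript, MSTRG.20280.5, with 40.9% in Onway and 49.9% in Control, ahead of Igf1r-201 with 24.5% in Onway and 25.9% in Control. Igf1 was spread over 8 protein-coding transcripts, of which Igf1-206 held 37.3% in Onway and 35.2% in Control. Igfbp2-202 was listed at 0 in all Onway libraries and at 0.160, 1.30 and 1.70 TPM in Control 4, Control 5 and Control 6.

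Many marker genes of several other cell types were lower in Onway, as Igfbp3, Igfbp5 and Igfbp7 were. Of the tested markers 8 of 9 for stroma and fibroblasts and 8 of 10 for osteoblasts and osteocytes were lower in Onway. For endothelium 9 of 10 were lower, for skeletal muscle 11 of 12 and for megakaryocytes 10 of 10. These calls by limma at an adjusted p below 0.05 stand against 2.99% of all tested genes. The stromal list summed to 122 to 206 TPM in Onway and 249 to 421 TPM in Control, and most of its Onway sum was Fn1, fibronectin, at 144 ± 51.4 TPM in Onway and 64.5 ± 11.4 TPM in Control (limma adjusted p = 0.15). The osteoblast and osteocyte list summed to 17.3 to 36.4 TPM in Onway and 306 to 1486 TPM in Control. Runx2 was the largest part of each Onway sum of that list. It was at 9.97 ± 2.2 TPM in Onway and 9.49 ± 1.8 TPM in Control (limma adjusted p = 0.94). The endothelial list summed to 33.6 to 38.9 TPM in Onway and 121 to 137 TPM in Control. Its largest part in each Onway library was Pecam1, at 19.6 TPM on average, against 23.55 TPM in Control (limma adjusted p = 0.55). In each Control library it was Vwf, at 53.5 TPM on average, against 5.20 TPM in Onway. The megakaryocyte list summed to 109 to 173 TPM in Onway and 2030 to 2315 TPM in Control. The muscle list summed to 16.7 to 25.3 TPM in Onway and 752 to 4837 TPM in Control. Among defining markers, Dmp1 of osteocytes was at 0 in Onway 3, as were Tnnc2, Pvalb and Myh4 of muscle, and Mb of muscle was at 0 in Onway 1 and Onway 3. The part of these cell types in the differences of Igfbp3, Igfbp5 and Igfbp7 was not tested.

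**Figure D4:**
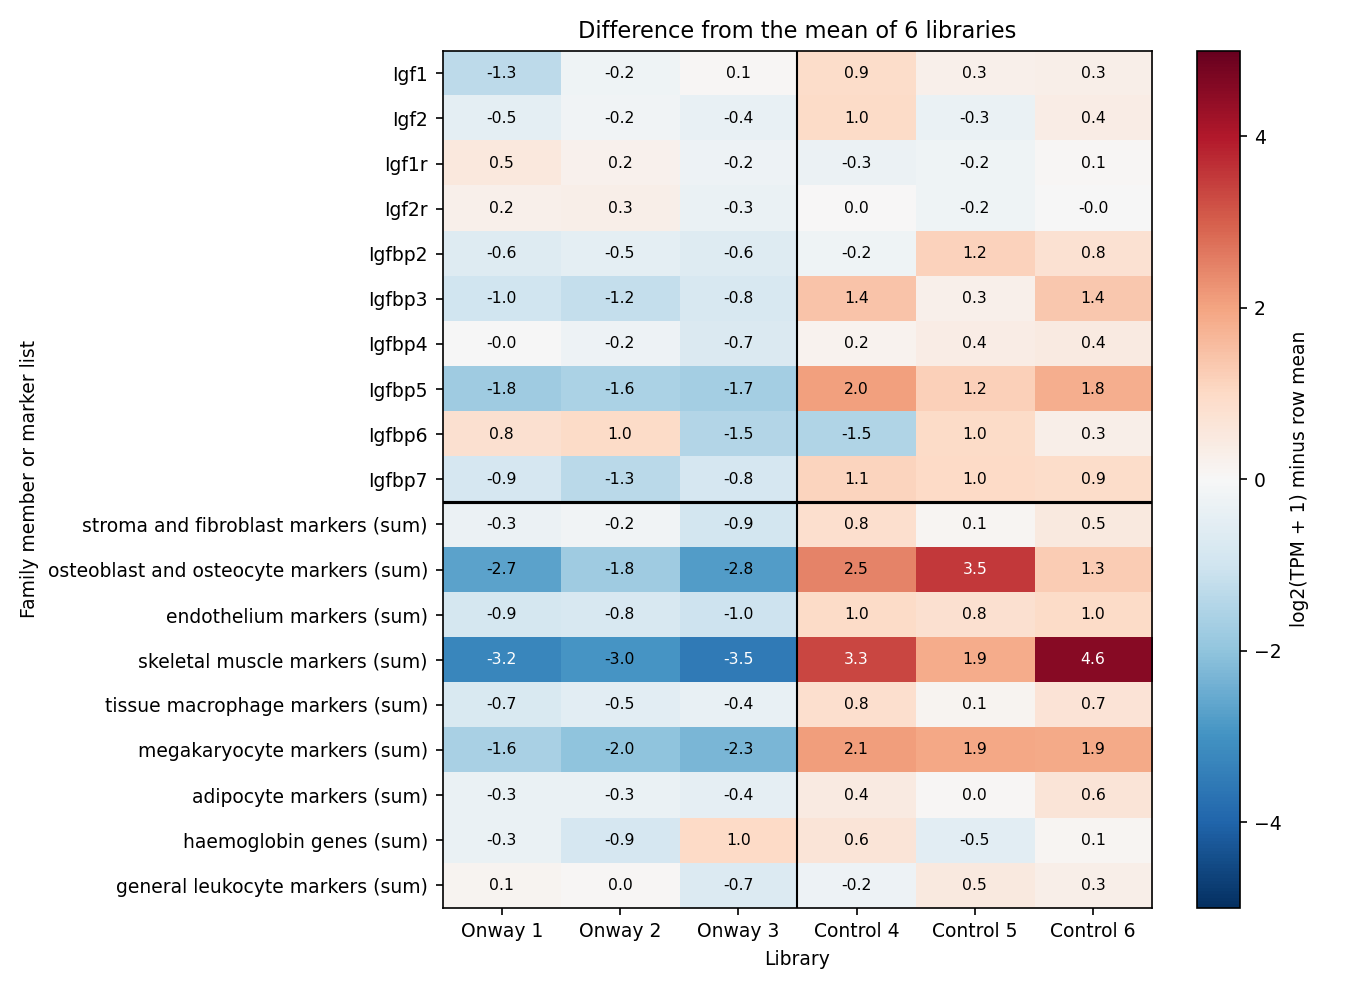
Log2(TPM + 1) of each family member, and of the summed TPM of each marker list, minus its mean over the 6 libraries (red, above; blue, below). The rows of Igfbp3, Igfbp4, Igfbp5 and Igfbp7 lie below their mean in every Onway library and above it in every Control library, as do the stroma, osteoblast, endothelium, muscle, macrophage, megakaryocyte and adipocyte rows.

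Tissue macrophage markers, from cells that also make IGF1, had 1 of 12 tested genes lower by limma at an adjusted p below 0.05 and 11 at an unadjusted p below 0.05, with a median log2 fold change of −1.11. That list had sums of 143 to 186 TPM in Onway and 262 to 429 TPM in Control. Its lower gene was Vcam1. Adgre1 of this list had a positive log2 fold change of 0.17, with overlapping groups and no call. Over all tested genes 2.99% were lower by limma at an adjusted p and 8.42% at an unadjusted p below 0.05. Among adipocyte markers none of 5 tested genes was lower by limma and 3 had an unadjusted p below 0.05. The median log2 fold change of the 5 was −1.17. The list summed to 63.3 to 67.7 TPM in Onway and 89.0 to 134 TPM in Control. Lipe and Pnpla2 of this list had positive log2 fold changes of 0.27 and 0.19, with overlapping groups and no call. Pnpla2 was at 42.63, 43.08 and 31.18 TPM in the Onway libraries, the largest part of each Onway sum. In the Control libraries it was at 27.8, 34.68 and 39.41 TPM. Fabp4, a fatty acid carrier of fat cells that endothelium and macrophages also express, was at 6.30, 7.68 and 19.4 TPM in the Onway libraries and 57.2, 33.95 and 67.6 TPM in the Control libraries (limma adjusted p = 0.053). Adipoq, the hormone adiponectin, was at 1.02, 1.56 and 3.50 TPM in the Onway libraries and 21.8, 6.78 and 11.4 TPM in the Control libraries (limma adjusted p = 0.063). Neither gene overlapped between the groups, nor did Cfd, adipsin, at 0.220, 0.330 and 0.0600 TPM in the Onway libraries and 1.29, 1.13 and 3.00 TPM in the Control libraries (limma adjusted p = 0.12). The fat cell genes Plin1, Lep and Cidec were at 0.0900 TPM or less in the Onway libraries and at 0.290 TPM or less in the Control libraries. The part of macrophages and fat cells in the differences of the family was not tested.

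The genes whose profiles lay nearest to each lower member were found by the root mean square difference of centred log2(TPM + 1) values over the 6 libraries. For Igfbp5 they were Timp3 (0.17), a matrix-bound metalloproteinase inhibitor, Cald1 (0.24), an actin-binding protein of smooth muscle and stroma, and Cp (0.26), ceruloplasmin. Timp3 was at 1.35, 1.24 and 1.04 TPM in the Onway libraries and 23.4, 17.2 and 20.6 TPM in the Control libraries. For Igfbp7 they were Maged2 (0.10), the endothelial junction gene Cldn5 (0.11) and Ehd3 (0.14). For Igfbp3 they were the slow muscle genes Tnni1 (0.11) and Myh7 (0.16) and the elastic fibre gene Fbln5 (0.16). Tnni1 was at 0.170, 0 and 0.180 TPM in the Onway libraries and 6.11, 1.91 and 4.79 TPM in the Control libraries. Myh7 was at 0 in all Onway libraries and at 3.37, 1.07 and 3.86 TPM in the Control libraries. These distances describe 6 libraries that fall into separate groups, and no test was made.

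**Figure D5:**
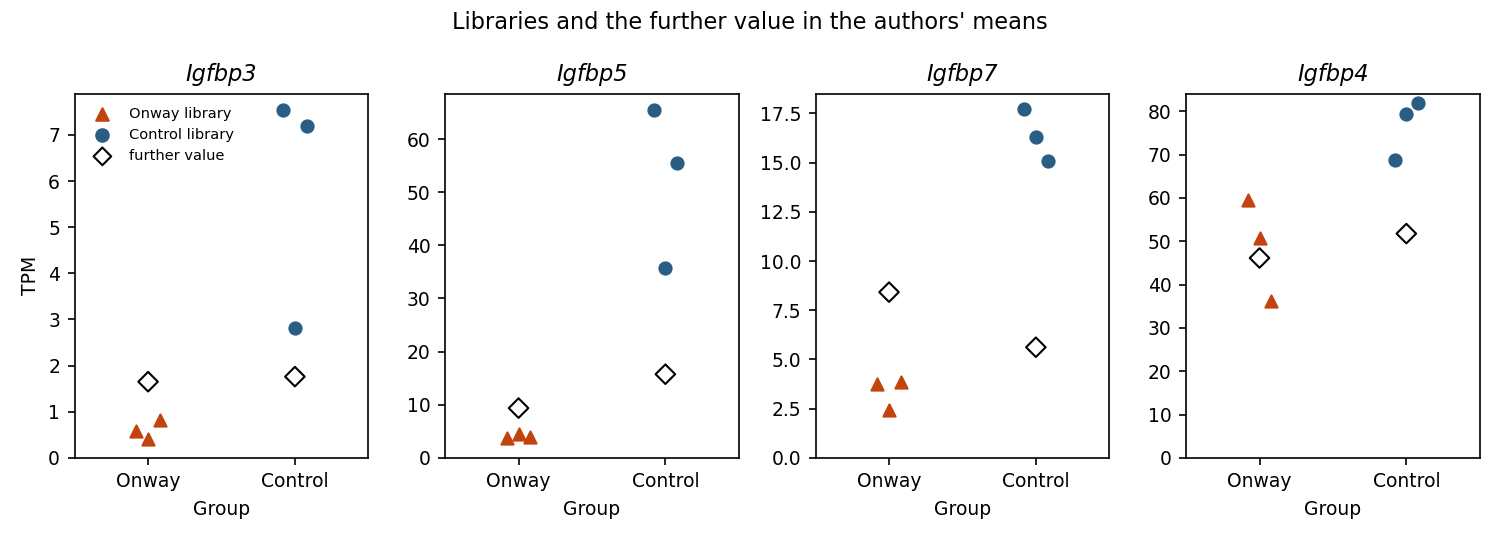
TPM of 4 binding protein genes in each library (triangles, Onway; circles, Control) and the further value that the authors' group means imply (open diamonds). For Igfbp3, Igfbp5 and Igfbp7 the further values of the groups lie nearer to each other than the libraries do. For Igfbp7 the further value is higher in Onway than in Control.

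The authors' deposited table also gives a mean per group, and these means contain a further value per group besides the 3 libraries. The means in the authors' deposited table were 5.37 TPM in Onway and 43.2 TPM in Control for Igfbp5, 4.62 TPM in Onway and 13.7 TPM in Control for Igfbp7, and 0.868 TPM in Onway and 4.83 TPM in Control for Igfbp3. Subtracting the 3 libraries from 4 times the mean left 9.36 TPM in Onway and 15.7 TPM in Control for Igfbp5, 8.42 TPM in Onway and 5.62 TPM in Control for Igfbp7, and 1.65 TPM in Onway and 1.76 TPM in Control for Igfbp3. Each of these Control values lay below all 3 Control libraries, and each Onway value above all 3 Onway libraries. For Igfbp4 the further values were 46.1 TPM in Onway and 51.8 TPM in Control, and for Igf1 4.77 TPM in Onway and 3.04 TPM in Control. The muscle list left 21.3 TPM in Onway and 21.8 TPM in Control, the endothelial list 79.5 TPM in Onway and 69.9 TPM in Control, and the megakaryocyte list 1180 TPM in Onway and 989 TPM in Control. The further values entered no test.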

How the data were processed

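The authors deposited 1 table of TPM for 158850 transcripts, with a transcript length beside each, and 2 columns of group means. GRCm38 and mm10 are listed as builds, per the submitters' processing notes. Aligner, quantifier and strandedness: not given in the sources used here. Each library sums to 1e+06 TPM. The treated columns carry a letter and a number, and that number tied each to its Onway library. On that match, 4 times the deposited Onway mean never fell short of the sum of these 3 columns (tolerance 0.011 TPM), while 4 times the Control mean did so for 30461 transcripts. Each deposited mean is a mean of 4 values. TPM was summed per gene, genes averaging 1 TPM or more across all 6 libraries were kept, and log2(TPM + 1) was fitted with limma 3.58.1 in R 4.3.3 (trend, robust, no covariate, two-sided, Benjamini-Hochberg over all tested genes). Adding 1 TPM understates the change of low genes. The fit was tested on simulated data. Gene positions are from GENCODE M21 (GRCm38), which holds 97.1% of the table's Ensembl transcripts.

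The members and lists were chosen with earlier results of these data known. Named are all members, every list gene past the threshold or, with fewer than 4, those of smallest p, and the 3 nearest profiles of each lower member. For 1 of the signalling genes counted and tested, the result is not reported here. Other genes are named as markers or for their role after their values were seen. Alternatives were another pseudocount, no filter, scaling without haemoglobin genes or by median of ratios, no robust moderation, and libraries left out.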

Additional observations from a re-analysis of the deposited data

Results flagged for a closer look

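Igf1r and Igf2r were flagged for the values that the authors' means hold beyond the 3 libraries of each group. For Igf1r this further value was 15.3 TPM in Onway, above all 3 Control libraries, and 10.6 TPM in Control. For Igf2r it was 8.19 TPM in Onway, just above the highest Control library at 8.14 TPM, and 7.14 TPM in Control. Each of these further values lay within the range of its own group's libraries. Both receptors overlapped between the groups in the libraries themselves, and the further values entered no test.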

How the results depend on the processing

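The number of members called lower was 3 and ranged from 2 to 4 when 1 library was left out, and no member was called higher under any alternative run. Igfbp5 and Igfbp7 kept their calls under all 12 alternatives, and Igfbp3 lost its call under 5 of them, all of them fits with fewer libraries. The further values in the authors' means entered none of these fits. The sign of Igfbp6 reversed without Onway 1 (−0.15), without Onway 2 (−0.24) and without Control 4 (−0.52), with no call in any, and ranged from −0.52 to 0.98 with 1 library left out. Members' transcripts called lower ranged from 2 to 3. Among other axis genes the count lower was 3, ranged from 0 to 4 with 1 library left out, and was 0 without both Control 4 and Onway 3. The signalling count lower was 0, and 2 with median-of-ratios scaling. Over all genes 424 were lower and 33 higher. With 1 library left out these counts ranged from 249 to 481 and from 17 to 87, and without both Control 4 and Onway 3 they were 213 and 98. Median-of-ratios scaling gave 73 higher. Without Control 4 and Onway 3 the median log2 fold change of all genes moved to 0.14. The higher share of calls was 7.22%, and 31.5% without those 2 libraries. No paired analysis was possible because the groups share no replicate number. TPM keeps no depth, so precision at levels below 1 TPM is unknown.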

Other observations

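A retained-intron row of Igf1r, Igf1r-206, was higher in Onway, at 1.74, 0.990 and 0.860 TPM in Onway 1, Onway 2 and Onway 3, against 0, 0.110 and 0.360 TPM in Control 4, Control 5 and Control 6. Its mean was under 1 TPM, so it was not tested, and it was singled out after its values were seen. It held 8.30% of the gene's TPM in Onway and 1.41% in Control.

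Among the untested axis genes, Pappa, the protease that cleaves IGFBP4, was at 0.0400, 0.0600 and 0.0900 TPM in Onway 1, Onway 2 and Onway 3, against 0.710, 0.130 and 0.470 TPM in Control 4, Control 5 and Control 6. Stc1, which encodes an inhibitor of that protease, was at 0.0600, 0.0100 and 0 TPM in the Onway libraries and 0.170, 0.380 and 0.240 TPM in the Control libraries. Both separated the groups at levels far below 1 TPM. Kazald1, an IGF binding protein-related gene of bone, was tested and missed the threshold (limma adjusted p = 0.0955). Its level was 0.350, 0.330 and 0.190 TPM in the Onway libraries and 1.81, 4.18 and 1.31 TPM in the Control libraries.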
